A study of Mus musculus with 2 samples.

Results

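The genes described here encode interleukin-2 (IL-2), the receptor chains it shares with related cytokines, and the kinases that these receptors use. They were chosen by name, 10 genes in all: Il2, Il2ra, Il2rb, Il2rg, Il4ra, Il7r, Il21r, Il15ra, Jak1 and Jak3. A gene was taken as measured where the probe annotation paired a probe set, a group of short probes for 1 transcript, with that gene symbol alone. This gave 8 of the 10 genes, read by 14 probe sets, of 11807 genes and 18003 such probe sets in all. Il2rg, the common gamma chain itself, and Il7r were not analysed here.

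There were 2 microarrays, 1 for each culture. The cells were naive CD4+ T cells from spleen and lymph nodes of female mice of the strain C57BL/6J. Immobilised antibodies against CD3 and CD28 stimulated them for 60 h. The untreated culture received no cytokine under neutral conditions, and the other received 25 ng/ml of recombinant murine IL-27, which binds a receptor made of Il27ra and Il6st. The stated aim was to find transcription factors that IL-27 induces. With 1 array for each group there is no replicate, no test was possible, and no value below separates the cytokine from variation between cultures. Precision is limited by the number of arrays.

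IL-2 is made by activated T cells and acts on the same and neighbouring cells as a growth and survival factor. Its receptor is built from an alpha chain (Il2ra, CD25), a beta chain (Il2rb) and the common gamma chain, which also serves the receptors for IL-4, IL-7, IL-9, IL-15 and IL-21. Jak1 binds the cytokine-specific chains and Jak3 the common gamma chain, and together they activate STAT5, or STAT6 and STAT3 for IL-4 and IL-21. STAT5 in turn is known to raise Il2ra and to restrain Il2, so that the pathway regulates its own ligand and receptor.

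Intensities are on the linear scale of the deposited table, and a difference is always log2, IL-27 array minus untreated array, each array being named by its label. Background was set at an intensity of 22.6 (4.50 on the log2 scale), the 95th percentile of 40 genes of other tissues. Of all genes, 7001 (59.3%) exceeded it on at least 1 array, with a median difference of 0.02 and quartiles of -0.21 and 0.22. A gene is called higher or lower where it was at least 2-fold apart. Where a gene has several probe sets, the one with the highest mean level stands for it. Socs3, a feedback inhibitor that STAT3 is known to induce, had intensities of 1122 on the untreated array and 185.8 on the IL-27 array. Directions follow the labels throughout. Whether the labels of the 2 arrays were exchanged could not be checked, and an exchange would turn every direction given here. Cd4 was above background on both, at 342.5 and 395.4. Of the T cell list, 11 of 11 measured genes were above background, against 1 of 8 for B cells, 2 of 12 for macrophages, 2 of 10 for granulocytes and mast cells, 1 of 5 for stromal cells and 0 of 5 for erythroid cells and platelets. Of the CD8 genes Cd8b1 was above it, at 119.3 and 176.5, and Cd8a below it on both arrays. In the list for dendritic cells and class II molecules 3 of 9 were above it, in both directions: H2-Ab1 at 312.5 and 81.6, Cd74 at 58.4 and 171.8 and H2-Eb1 at 65.5 and 114.7. The part of other cell types in the results was not tested.

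The promoters of the genes at the centre of the results are shown first, because Il2 and 4 of the receptor genes lie in 3 places of the genome where genes of this family stand side by side. Each window holds the 250 bases before a RefSeq transcription start in build GRCm38.p6, 5′ to 3′ on the gene's strand. Capitals mark GGAAA, the core of NFAT sites, and TGACTCA, an AP-1 site, on either strand, so they also appear as TTTCC and TGAGTCA. Il2 (chr3:37125955-37126204, minus strand) and its neighbour Il21 (chr3:37232637-37232886, minus strand) are the first pair. Il2ra (chr2:11642542-11642791, plus strand) and Il15ra (2 starts, chr2:11705043-11705292 and chr2:11705462-11705711, plus strand) are the second. Il4ra (chr7:125552021-125552270, plus strand) and Il21r (chr7:125603179-125603428, plus strand) are the third.
Il2: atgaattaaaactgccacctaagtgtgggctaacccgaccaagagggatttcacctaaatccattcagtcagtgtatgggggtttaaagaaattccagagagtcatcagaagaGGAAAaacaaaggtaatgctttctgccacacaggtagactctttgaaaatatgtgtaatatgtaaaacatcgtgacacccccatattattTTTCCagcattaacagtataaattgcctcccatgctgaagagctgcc
Il21: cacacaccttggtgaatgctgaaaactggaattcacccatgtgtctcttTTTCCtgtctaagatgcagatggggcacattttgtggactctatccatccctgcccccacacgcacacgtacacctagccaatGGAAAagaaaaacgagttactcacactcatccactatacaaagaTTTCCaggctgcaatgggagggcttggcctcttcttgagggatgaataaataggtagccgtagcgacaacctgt
Il2ra: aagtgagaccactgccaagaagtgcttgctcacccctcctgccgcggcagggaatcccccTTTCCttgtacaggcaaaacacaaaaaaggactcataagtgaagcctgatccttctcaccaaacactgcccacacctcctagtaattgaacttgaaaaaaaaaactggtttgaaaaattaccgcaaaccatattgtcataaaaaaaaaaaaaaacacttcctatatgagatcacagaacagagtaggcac
Il15ra, start 1: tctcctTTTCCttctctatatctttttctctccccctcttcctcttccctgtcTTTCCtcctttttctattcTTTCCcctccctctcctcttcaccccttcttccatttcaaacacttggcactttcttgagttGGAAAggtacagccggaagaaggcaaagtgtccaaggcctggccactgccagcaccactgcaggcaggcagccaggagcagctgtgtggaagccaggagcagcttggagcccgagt
Il15ra, start 2: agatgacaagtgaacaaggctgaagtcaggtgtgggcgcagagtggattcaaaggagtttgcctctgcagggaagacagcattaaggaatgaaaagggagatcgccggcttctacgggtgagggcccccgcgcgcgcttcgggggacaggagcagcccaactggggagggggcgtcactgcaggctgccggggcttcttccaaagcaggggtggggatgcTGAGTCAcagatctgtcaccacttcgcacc
Il4ra: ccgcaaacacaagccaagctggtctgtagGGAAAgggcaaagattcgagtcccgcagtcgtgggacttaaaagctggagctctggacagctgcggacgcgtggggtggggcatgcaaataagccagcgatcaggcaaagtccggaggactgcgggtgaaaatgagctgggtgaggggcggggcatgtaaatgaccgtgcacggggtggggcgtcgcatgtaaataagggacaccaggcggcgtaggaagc
Il21r: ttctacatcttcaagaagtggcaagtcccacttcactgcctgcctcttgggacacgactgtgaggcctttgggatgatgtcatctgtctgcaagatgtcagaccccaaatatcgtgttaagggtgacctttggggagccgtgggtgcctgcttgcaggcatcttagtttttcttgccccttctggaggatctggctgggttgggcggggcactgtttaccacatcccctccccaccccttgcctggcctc

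Il2 had GGAAA at 2 places, 137 to 133 and 47 to 43 bases before its start, and Il21 had it at 3. The window of Il21r had none of these motifs. RefSeq windows were at hand for 7 of the 8 measured genes, 8 windows in all, of which 5 held GGAAA and 1, the start 2 of Il15ra, held TGACTCA. Over all 32851 windows of this length, 55.6% held GGAAA and 4.46% TGACTCA. The core of STAT sites, TTCNNNGAA, was in 7.02% of all windows and in 0 of these 8. Such matches describe letters in a window and say nothing of whether a factor binds.

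The ligand was the member that stood apart. Il2 stood at an intensity of 338.0 on the untreated array and 1853 on the IL-27 array, a difference of 2.45 or 5.48-fold. Both values lie far above background. The difference ranked 15 from the top among the 7001 genes above background. It was read by 1 probe set, so no other probe set checks it. In RNA from whole cultures, more cells making Il2 and more Il2 RNA per cell cannot be told apart. Of the 8 measured members, 1 (Il2) was called higher and 0 lower, where 1.47% of all genes above background were called higher and 2.71% lower. By probe sets, 1 of the 13 above background was called higher and 0 lower, beside 1.28% and 2.55% of all probe sets. The other 7 members were within 2-fold on both sides, with a median of -0.45, and the median of all 8 was -0.17. In all, 4 of the 8 members had lower values, beside 47.7% of all genes above background.

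**Figure D1:**
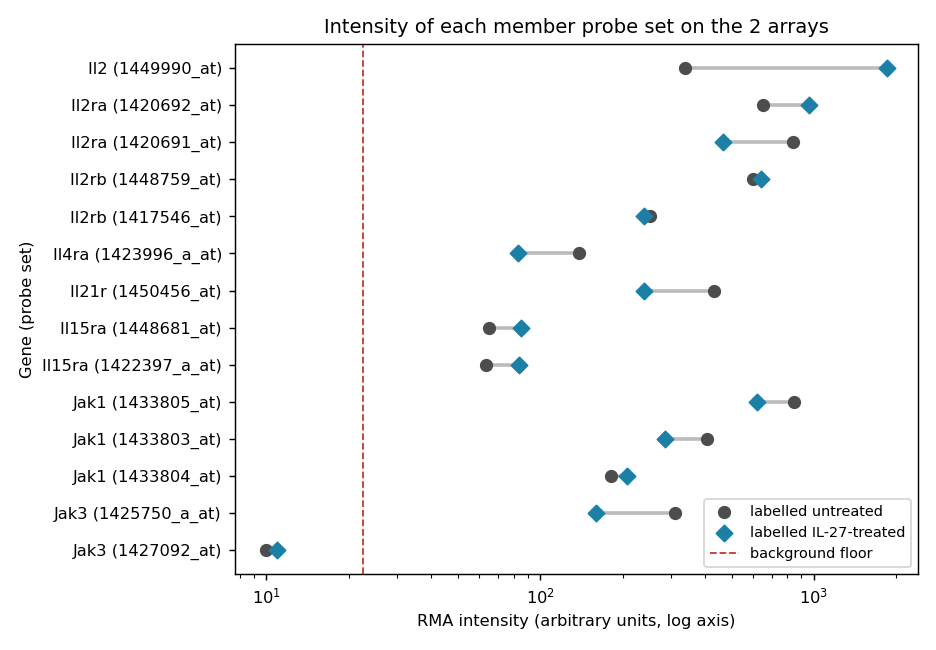
RMA intensity (log axis) of each of the 14 member probe sets on the untreated array (circles) and the IL-27 array (diamonds), with the background floor at 22.6 dashed. Il2 shows the longest span, from 338.0 to 1853, and 1 probe set of Jak3 lies below the floor on both arrays.

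The alpha chain of the IL-2 receptor gave 2 opposite readings. Its probe set 1420692_at had intensities of 650.7 and 961.4, a difference of 0.56 toward the IL-27 array. Its probe set 1420691_at had intensities of 836.8 and 465.6, a difference of -0.85. Both were well above background on both arrays, and the annotation assigns both to Il2ra alone and to the same target transcript. The 2 differences are 1.41 apart. Of 2156 genes with several probe sets above background on both arrays, only 2 had a wider range, and the median range was 0.20. Opposite readings beyond 0.5 on each side were found in 3 of these genes (0.139%). The data therefore give no single direction for Il2ra. As the probe set with the higher mean level, 1420692_at, stands for the gene, Il2ra counts on the higher side. On the untreated array alone 1420691_at was the brighter. With the mean of both probe sets the difference of Il2ra was -0.14.

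The beta chain and the IL-15 receptor alpha chain were read alike by their probe sets. Il2rb, which signals for both IL-2 and IL-15, had intensities of 596.9 and 639.4 by its brighter probe set and 250.8 and 239.4 by the other. The differences, 0.10 and -0.07, have opposite signs and are both smaller than the spread between probe sets of 1 gene, an SD of 0.20. Il15ra, the chain that binds IL-15 and presents it to neighbouring cells, had intensities of 64.9 and 84.9 by 1 probe set and 63.5 and 83.6 by the other. Its differences of 0.39 and 0.40 were within 0.01 of each other, a 1.31-fold difference. The annotation gives these 2 probe sets different target transcripts.

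**Figure D2:**
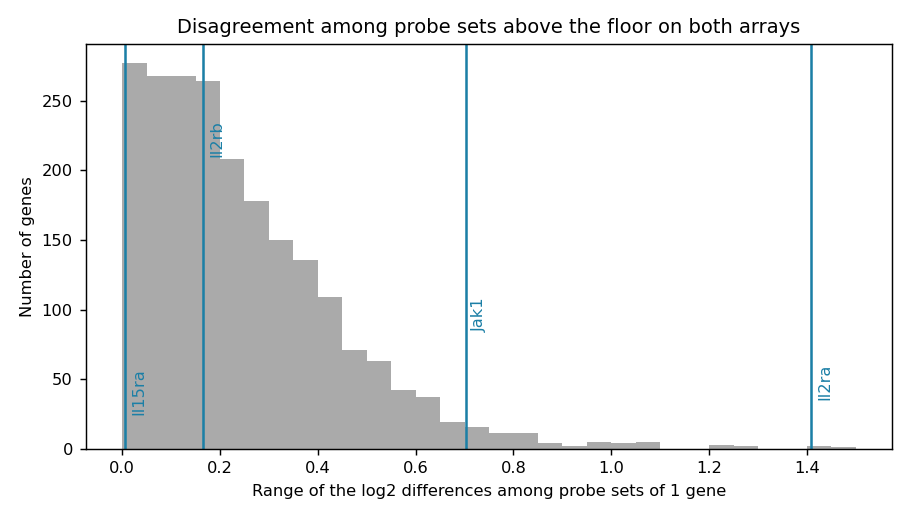
Histogram of the range of log2 differences among probe sets of 1 gene, over the 2156 genes with several probe sets above the floor on both arrays; vertical lines mark the 4 such members. Il15ra and Il2rb lie at 0.01 and 0.17, Jak1 at 0.70 and Il2ra at 1.41, in the far right tail.

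The receptor chains specific for IL-4 and IL-21 had lower values on the IL-27 array. Il4ra, which pairs with the common gamma chain to bind IL-4 and is also a chain of the IL-13 receptor, had intensities of 138.1 and 82.9, a difference of -0.74 or 1.67-fold. Il21r, the private chain of the IL-21 receptor, had intensities of 430.5 and 239.4, a difference of -0.85 or 1.80-fold. Among all genes above background, 4.67% had a more negative difference than Il4ra and 3.64% a more negative one than Il21r. Each was read by 1 probe set, and neither reached 2-fold.

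Both kinases also had lower values by the probe sets that stand for them. Jak3, which associates with the common gamma chain, had intensities of 309.9 and 160.5, a difference of -0.95 or 1.93-fold and the most negative of the members. Its other probe set was below background on both arrays, at 9.94 and 10.96, and gives no fold. Jak1, which serves the other receptor chains and many further cytokine receptors, including those of the IL-6 family, had intensities of 844.0 and 618.8 by its brightest probe set and 405.2 and 285.0 by the next, differences of -0.45 and -0.51. The dimmest of the 3 had 180.7 and 206.8, a difference of 0.19. The range of 0.70 among the probe sets of Jak1 was exceeded by 61 of the 2156 genes.

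**Figure D3:**
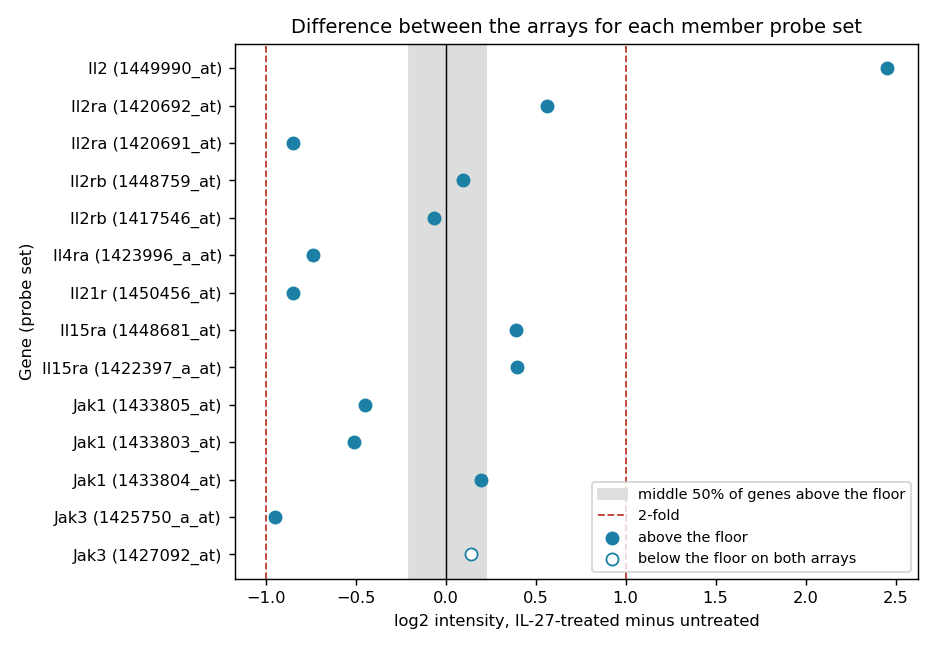
Log2 difference, IL-27-treated minus untreated, of each member probe set; filled points are above the background floor, the open point is below it on both arrays, the grey band is the range between the quartiles of genes above the floor and the dashed lines mark 2-fold. Il2 alone lies beyond 2-fold at 2.45, while Il4ra, Il21r and 1 probe set each of Il2ra and Jak3 lie between -0.74 and -0.95.

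The positions of the members gave further comparisons, chosen after the values were seen. In the RefSeq gene table, Il2 and Il21 follow each other on chromosome 3 with no protein-coding gene between them. Il21, a helper T cell cytokine whose receptor pairs Il21r with the common gamma chain, had intensities of 384.3 on the untreated array and 26.7 on the IL-27 array. This is a difference of -3.85 or 14.4-fold, with the second value close to background. The neighbours Il2 and Il21 thus differed in opposite directions, and their differences were 6.30 apart. Of 2964 pairs of neighbouring protein-coding genes above background, 0 had a wider gap, the median gap was 0.29, and 6 pairs (0.202%) had 1 gene called higher and the other lower. Adad1, on the other side of Il2, was below background on both arrays, at 9.16 and 9.12.

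Il4ra and Il21r are neighbours on chromosome 7, and their differences of -0.74 and -0.85 were 0.11 apart. Both genes of a pair were at or below -0.5 in 56 of the 2964 pairs (1.89%), this pair included. That limit is looser than 2-fold, at which neither gene was called. As the pair was chosen after its values were seen, the share does not measure how unusual it is. The flanking genes differed little, Nsmce1 by 0.01 and Gtf3c1 by 0.05. Il2ra and Il15ra are neighbours on chromosome 2, with differences of 0.56 and 0.39 by the probe sets that stand for them. The other probe set of Il2ra gives the opposite sign. The genes flanking this pair were Rbm17 at 0.21 and Fbh1 at 0.01.

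Jak3 overlaps its neighbour Insl3, the gene of a hormone of testis Leydig cells, in the RefSeq table. The probe set of Insl3 had intensities of 577.7 and 299.9, a difference of -0.95 that matched that of Jak3 to within 0.003. Of the pairs, 0.607% had a smaller gap, and the 345 overlapping pairs had a median gap of 0.26. Whether the probe sets of Jak3 and Insl3 read separate transcripts was not tested.

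**Figure D4:**
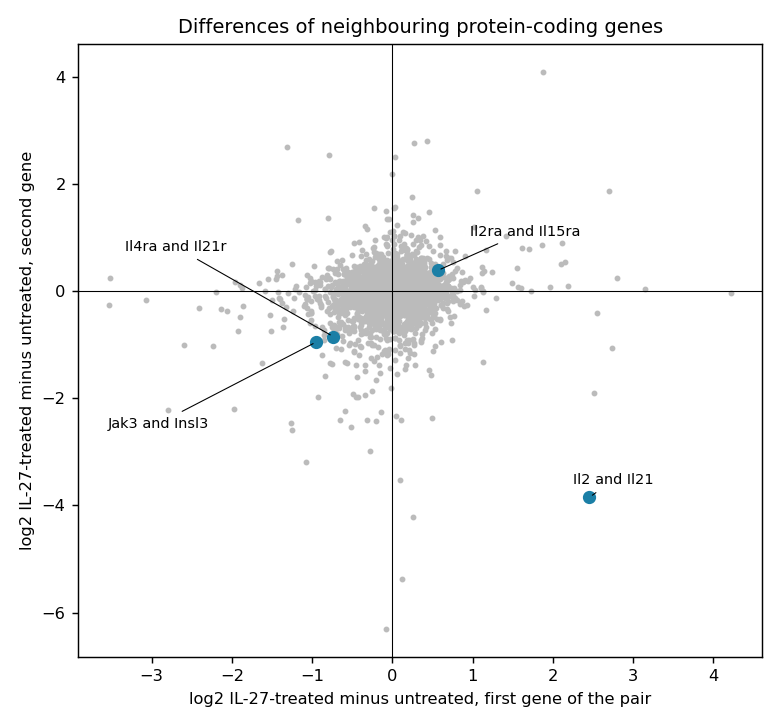
Log2 difference, IL-27-treated minus untreated, of the first against the second gene of each of the 2964 pairs of neighbouring protein-coding genes above background; 4 pairs with a member are marked. Il2 and Il21 lie far into the corner of opposite directions at 2.45 and -3.85, while Il4ra with Il21r and Jak3 with Insl3 lie together on the lower side.

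Other ligands of the family were mostly below background. Of the 8 measured ligands that use these receptors or share Il7r, 3 were above it: Il2, Il21 and Il13, a Th2 cytokine that uses Il4ra, at 22.9 and 32.7, next to the floor. Il4, Il7, Il9, Il15 and Tslp were below background on both arrays, between 9.06 and 18.2. Of the 3 further receptor chains, Crlf2, which pairs with Il7r to bind TSLP, was above background at 435.3 and 278.7, a difference of -0.64. Il9r and Il13ra1 were below it on both arrays.

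Among 9 measured Janus kinases and STAT factors, all above background, 0 were called higher and 0 lower. Of these, 8 had lower values, where 47.7% of all genes above background did, and the list's median was -0.40 beside 0.02 for all genes. Jak1 and Jak3 are 2 of the 9, and the median without them was -0.21. Stat5a and Stat5b, the factors that IL-2 activates, differed by -0.56 and -0.50, and each had a second probe set that gave -0.37 and -0.51. Stat5a had intensities of 820.6 and 555.3 and Stat5b 486.0 and 343.3. Stat6, which serves IL-4, had 122.7 and 120.0, and Stat4, which serves IL-12, was the 1 with a higher value, at 1009 and 1311.

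In the relay downstream of the receptor, 9 of 11 measured genes were above background and 0 were called in either direction, with a median of -0.31. Of the 9, 5 had lower and 4 had higher values, where 47.7% of all genes above background were lower. The adaptor Shc1 differed by -0.53, the phosphoinositide 3-kinase subunit Pik3cd by -0.43 and the kinase Map2k1 by -0.40. The other probe sets of Pik3cd, above background on both arrays, gave -0.58 and -0.05. The adaptor Gab3 was below background on the untreated array and close to it on the other, at 25.2.

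Feedback inhibitors and phosphatases lay on both sides. Of 12 above background, 1 was called higher and 1 lower, 8.33% each beside 1.47% and 2.71% of all genes. The median was 0.02. Socs2, an inhibitor that STAT5 is known to induce, had intensities of 886.1 and 1956, a difference of 1.14, and its other probe set gave 1.68. Socs3 was lower by 6.04-fold. Cish, the classical STAT5 target among these inhibitors, had intensities of 1071 and 1013, a difference of -0.08. The phosphatases Ptpn2 and Ptpn6, which act on JAK and STAT proteins, differed by -0.60 and -0.58.

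Genes that IL-2 and STAT5 are known to raise had values in both directions, with 1 of 31 called higher and 5 called lower. That is 3.23% and 16.1%, beside 1.47% and 2.71% of all genes, and the median was -0.11. Il2ra, Il2rb and Il4ra belong to this list too, and the median of the other 28 was -0.12. Socs2 was the higher one. Nfil3, a transcription factor of many lymphocytes, had intensities of 1433 and 271.7, a 5.28-fold lower value. Selp, the adhesion molecule P-selectin, had 473.9 and 54.6, 8.68-fold lower and much the same by its other probe set (-3.15 beside -3.12). Il12rb2, a chain of the IL-12 receptor, was 2.23-fold lower. Prdm1, which encodes the repressor Blimp-1, was below background on the IL-27 array and at least 8.42-fold lower. The perforin gene Prf1 was below background on the IL-27 array and at least 7.31-fold lower by 1 probe set, while the other, near the floor, differed by -0.04. Klrd1 and Klrk1, which encode receptors of NK cells, were lower there too, at 114.2 and 16.4 and at 68.2 and 14.7, with 3 of 8 genes in the list for NK and gamma-delta T cells above background and summed intensities of 281.0 and 112.0. The defining NK genes Ncr1 and Klrb1c were below background on both arrays, and the part of such cells in these values was not tested.

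Of 4 measured genes above background that STAT5 is known to lower, Il21 was called lower and 0 were called higher. This 1 gene is 25% of the list, beside 2.71% of all genes called lower. Il6ra, the IL-6 receptor chain, differed by -0.59 and Il6st by -0.04, and Bcl6 was near the floor, at 20.6 and 25.3. The median was -0.31.

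Of 23 genes above background that are known to control Il2 transcription, 0 were called higher and 3 lower (13.0% beside 2.71% of all genes), and 18 had lower values, with a median of -0.25. The list mixes genes that drive Il2 with genes that repress it, so its counts and median give no direction for Il2. Prdm1, which is known to repress Il2, was among the 3 called lower. The others were the AP-1 members Fosl2, at 161.3 and 46.0 or 3.50-fold lower, and Junb, at 988.3 and 489.8 or 2.02-fold lower. The call of Junb ended when array medians were subtracted (-0.98) and with a pseudocount of 16 (-0.99). Rel, the NF-kappaB subunit c-Rel that is known to drive Il2, stood at 74.9 and 146.2, a difference of 0.96, just under 2-fold and past it with array medians subtracted. Of the NFAT genes, Nfatc1 differed by -0.21 and Nfatc3 by -0.12, and Nfatc2 was at the floor on the untreated array. Of 8 genes above background that are known to control Il7r, 0 were called. Runx1, a factor of lymphocyte development, differed by 0.60, with its other probe sets above background on both arrays at 0.12 and -0.02 and a further one, below the floor on the untreated array, at 0.93. Foxo3 differed by -0.56, the repressor Gfi1 by 0.45 and Foxp1 by 0.31.

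**Figure D5:**
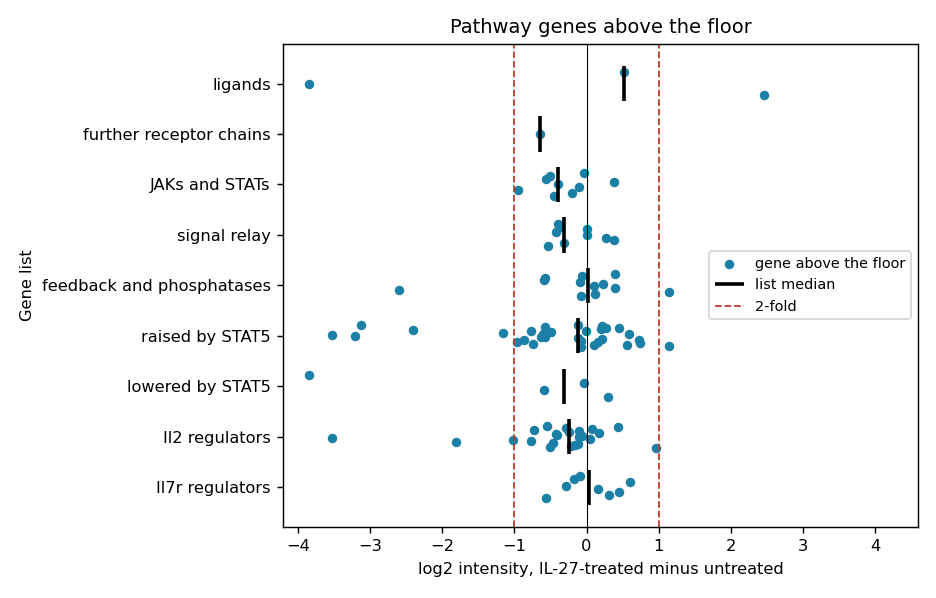
Log2 difference, IL-27-treated minus untreated, of each gene above the floor in 9 pathway lists (points, spread vertically only to separate them), with the list median (bar) and 2-fold (dashed). The medians lie between -0.64 and 0.52, the points furthest out on the lower side are Il21 and Prdm1, and Il2 is furthest out on the higher side. A gene below the floor on 1 array, such as Prdm1 or Prf1, is drawn with its value below the floor. The place of such a point is therefore not exact, and the order of Prdm1 and Selp is not settled.

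For comparison by level on both arrays, the genes nearest to Il2 were Ahcyl2, Izumo1r and Cd44, at distances of 0.796, 0.997 and 1.15 on the log2 scale over the 2 values. Their differences of 1.33, 1.13 and 1.17 were smaller than the 2.45 of Il2. The nearest to Jak3 were Sptlc1, Gnptab and Cic, at distances of 0.05, 0.14 and 0.15. With 2 arrays such likeness rests on 2 values a gene.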

How the data were processed

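Biotin-labelled RNA from 100 ng of total RNA was hybridised to 1 Affymetrix 3' array per culture, per the labels' protocols. The deposited values are linear intensities, 1 for each probe set on each array. Per the submitters' processing notes they come from RMA, which subtracts background, quantile-normalizes and summarizes probes; its version is not given in the sources used here. Quantile normalization makes the 2 distributions nearly alike (medians 33.3 and 32.4) and so hides any global change in RNA content, and RMA shrinks differences of dim probe sets.

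Intensities were taken to log2 without a pseudocount or further normalization (Python 3.11.15, pandas 2.3.3). Of 22716 probe sets, 18003 had 1 symbol, 287 several and 4426 none listed; those with 1 were used. RefSeq identifiers matched 17977 and changed 0 symbols. The calling procedure was tested on simulated data. These held independent noise for each probe set, so the test does not bear on variation between cultures. The members and lists were chosen with earlier results of these data known. Named genes are all measured members, genes of the pathway lists at least 2-fold apart, the 4 largest absolute differences of each such list and the 3 nearest genes to Il2 and Jak3; others, such as the neighbours and Insl3, were chosen after their values were seen. Of each list, genes without a single-symbol probe set were left out. Where a gene was below background on 1 array, its fold is the brighter intensity over the floor. Alternatives covered the filter, normalization (statsmodels 0.14.6 for loess), pseudocount, threshold and choice of probe set.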

Additional observations from a re-analysis of the deposited data

How the results depend on the processing

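No paired analysis was possible because each group has 1 array and no test was run. The call of Il2 kept its direction and its side of 2-fold under every alternative run, with differences between 2.40 and 2.49. No member probe set above background changed sign in the 6 alternatives applied to probe sets, and 0 members were called lower except at 1.5-fold. At 1.5-fold, 5.11% of all genes above background were higher and 7.23% lower. Of the members, 1 was then higher and 3 (4 probe sets) were lower. The lower counts were 1 for ligands, 1 for further receptor chains, 1 for JAKs and STATs and 2 for feedback genes. They were 11 for genes raised by STAT5, 2 for genes lowered by STAT5 and 5 for Il2 regulators. The higher counts at 1.5-fold were 1 for ligands, 1 for feedback genes and 3 for genes raised by STAT5. They were 1 for Il2 regulators and 1 for Il7r regulators. Subtracting array medians brought 1 Il2 regulator, Rel, past 2-fold and left Junb short of it (-0.98), so that 2 were lower in place of 3. A pseudocount of 16 also left Junb short (-0.99). The median of the ligands, 0.52 over 3 genes, was 0.18 with dim genes kept and -0.70 with a floor at 45.1, and that of genes lowered by STAT5 was -0.59 with the latter. With the mean of probe sets Il2ra gave -0.14 and Jak3 -0.40, the latter taking in a probe set below background. The median of the 8 members was -0.17, and -0.59 with Il2ra read by its other probe set, an alternative chosen after seeing the data.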
